A study of Mus musculus with 18 samples.

Results

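The genes described here encode the pocket proteins (Rb1, Rbl1 and Rbl2), the subunits of the MuvB core (Lin9, Lin37, Lin52, Lin54 and Rbbp4) and the B-MYB and A-MYB transcription factors (Mybl2 and Mybl1). They were chosen by symbol, and the 10 genes are 10 rows of the 55450 in the count table, each matched by a single identifier. All 10 passed the filter on low counts, as did 19186 genes in all. Pocket proteins bind E2F transcription factors and hold back genes needed for DNA replication until cyclin-dependent kinases phosphorylate them. The MuvB core joins p107 or p130 and a repressor E2F to form the DREAM complex, which keeps cell cycle genes silent in resting cells, and later joins B-MYB and FOXM1 to switch on genes of mitosis. In mammary epithelium pocket proteins restrain proliferation, and T121, described next, is used to inactivate the whole family at once.

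RNA was sequenced from 15 mouse mammary tumors and 3 normal mammary glands of female C57Bl/6 mice, with 1 library per mouse. B1/P/Rbf tumors (n = 5) arose in Brca1 fl/fl, Trp53 fl/fl, TgK18GT121 Tg/+ mice, B1/P tumors (n = 5) in Brca1 fl/fl, Trp53 fl/fl mice, and P/Rbf tumors (n = 5) in Trp53 fl/fl, TgK18GT121 Tg/+ mice, while the glands (n = 3) were wild type. All 3 tumor groups therefore shared the floxed Trp53 alleles. Adenovirus carrying Cre was injected through the nipple of adult females, and the Cre-dependent transgene places T121, a fragment of the SV40 large T antigen that binds and inactivates pRb, p107 and p130, under the keratin 18 promoter. Only cells reached by the virus were changed, T121 was made only where keratin 18 was active, and each library held all cells of a tumor or gland. Protein levels, phosphorylation and T121 itself were not analysed here, so every value below is an RNA level.

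Total counts ranged from 27661173 to 37794889 per library. Counts of the 10 genes ranged from 47 (Mybl1) to 23012 (Rbbp4), and those of Mybl2 were not whole in 15 libraries since RSEM divides reads that align to several genes between them. Trp53 read 6.75 to 24.3 CPM (counts relative to the TMM-scaled library size) in the tumors and 54.4 to 71.8 CPM in the glands. Brca1 read 8.13 to 45 CPM in the tumors of both Brca1 fl/fl groups, 44.9 to 116 CPM in P/Rbf tumors and 4.61 to 5.99 CPM in the glands. These counts cover whole genes rather than the deleted exons. Among Brca1 fl/fl tumors, B1/P/Rbf tumor 208863 read highest at Brca1 (45 CPM), and the other B1/P/Rbf tumors read 21.1 to 27.9 CPM. By RT-qPCR the paper reports only partial loss of Brca1 expression in that tumor, and loss in the other Brca1 fl/fl tumors. Leaving out tumor 208863 changed no call at the members in any comparison. Normal glands held RNA of other tissues: the 6 skeletal muscle markers summed to 23235 to 45493 CPM there, against 0.949 to 23.3 CPM in 14 tumors and 608 CPM in B1/P tumor 248662, and the 7 adipocyte markers to 10385 to 14398 CPM, against 15.5 to 218 CPM in the tumors. The 8 lymphocyte markers also summed higher in glands (581 to 833 CPM) than in tumors (17.0 to 140 CPM). Among tumors, the 8 luminal epithelial markers summed to 786 to 3389 CPM for B1/P, 3164 to 7010 CPM for B1/P/Rbf, and 6484 to 12878 CPM for P/Rbf, and the 8 fibroblast markers to 2607 to 13269, 852 to 4911 and 1309 to 4441 CPM, with no listed marker at 0 in a whole group. The libraries are numbered in the labels, which do not call them batches, and the paper describes the samples as pooled for sequencing. The cut into 2 sets between numbers 8 and 9 was set here. All B1/P/Rbf tumors, with 3 from B1/P (225068, 225070 and 246361) hold numbers up to 8, and the other 2 B1/P tumors, the P/Rbf tumors and the glands hold numbers from 9 to 18, so B1/P/Rbf cannot be told apart from this split in comparisons with P/Rbf or with glands, except through the B1/P tumors.

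Tumors with the T121 transgene (the B1/P/Rbf and P/Rbf groups, termed T121 tumors) differed from B1/P tumors in the same direction at 5 of the 10 genes. Rbl1, Lin9, Lin52 and Rbbp4 were higher and Rbl2 was lower in B1/P/Rbf when set against B1/P (adjusted p of 0.05 or less, edgeR quasi-likelihood test over all 19186 genes). P/Rbf tumors showed the same 5 differences from B1/P tumors, and Lin54 was also higher. With a term for the 2 sets of library numbers, 4 of the 5 calls remained in B1/P/Rbf, and 2 of the 6 in P/Rbf (Rbl2 and Lin52). Under that term the calls over all genes also fell, from 1413 higher and 1782 lower to 1060 and 1328 for B1/P/Rbf and from 1618 and 2066 to 618 and 1390 for P/Rbf. These 2 comparisons share the B1/P tumors. P/Rbf and B1/P tumors differ in the Brca1 alleles as well as in the transgene, which cannot be told apart in that comparison. Thus for B1/P/Rbf relative to B1/P 4 of 10 members were called higher, as were 7.36% of all genes, and 1 of 10 lower, as were 9.29% of all genes. For P/Rbf relative to B1/P 5 of 10 were higher and 1 of 10 lower, beside 8.43% and 10.8% of all genes. Between the T121 groups, which differ in the Brca1 alleles, 0 members were called higher and 0 lower, beside 0.219% and 0.0625% of all genes. In that comparison 0 members had an unadjusted p under 0.05 (the smallest was 0.0665, edgeR, for Lin54), and DESeq2 and limma also called 0. Of 8 luminal markers 3 were higher in B1/P/Rbf and 5 in P/Rbf against B1/P, and of 8 fibroblast markers 2 and 3 were lower, as were 2 of 7 basal markers in each. An unadjusted p under 0.05 (edgeR) was held by 5 and 7 luminal, 6 and 3 fibroblast and 5 and 3 basal markers in that order. Of 7 macrophage markers 0 and 1 were lower, with median log2 fold changes of -0.58 and -1.09 and 5 of 7 at an unadjusted p under 0.05 in P/Rbf (edgeR). Of 6 skeletal muscle markers 3 and 5 were lower, with a B1/P sum of 608 CPM in tumor 248662 and 1.54 to 9.94 CPM in the other 4, where B1/P/Rbf tumors held 5.5 to 23.3 CPM and P/Rbf tumors 0.949 to 4.12 CPM. Of 7 adipocyte markers 2 were higher in B1/P/Rbf and 1 was lower in P/Rbf. Their part in the differences at the members was not tested. In bulk tumors a change in the number of cells of a type and a change in RNA per cell cannot be told apart.

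**Figure D1:**
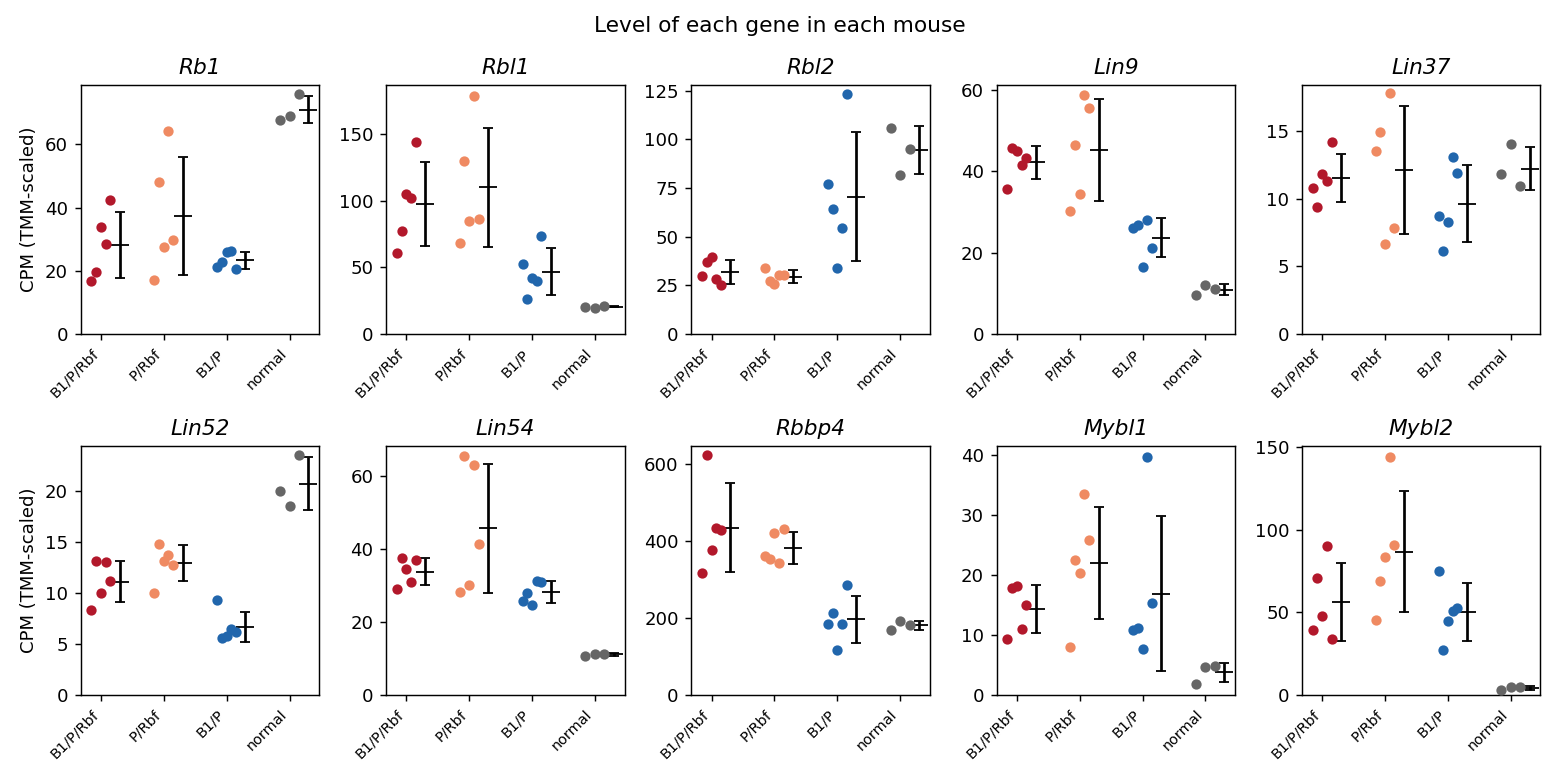
CPM of each of the 10 genes (vertical axes, linear, from 0) in each mouse (points) of the 4 groups, with the mean and SD of each group as a dash and bar. Rbl1, Lin9 and Rbbp4 lie higher and Rbl2 lower in both T121 groups than in most B1/P tumors, and Mybl2 lies above 26 CPM in all 15 tumors and below 5 CPM in the glands.

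Rbl1 (ENSMUSG00000027641.13, chr2:157145893-157204534, minus strand, GRCm38, the build of all gene positions here) encodes p107, the pocket protein that accumulates in cycling cells and whose own gene is an E2F target. It read 60.9, 77.7, 105, 102 and 144 CPM in B1/P/Rbf tumors 208855, 208857, 208863, 209490 and 210906. P/Rbf tumors 287842, 287845, 290860, 287822 and 290845 read 68.5, 130, 84.7, 179 and 86.5 CPM. B1/P tumors 225068, 225070, 246361, 255232 and 248662 read 52.2, 26.4, 41.8, 39.6 and 73.3 CPM, and glands 330154, 330155 and 330156 read 20.3, 19.9 and 20.9 CPM. Only B1/P tumor 248662 reached into the range of the T121 tumors, and all tumors exceeded all glands. The means were 97.8 ± 31.5 (SD, n = 5), 110 ± 45 (n = 5), 46.7 ± 17.5 (n = 5) and 20.4 ± 0.480 CPM (n = 3) in that order. Relative to B1/P, the log2 fold change was 1.07 ± 0.30 (SE) for B1/P/Rbf (adjusted p = 0.0221, edgeR) and 1.23 ± 0.30 for P/Rbf (adjusted p = 0.01). Leaving out B1/P/Rbf tumor 210906 ended the first call, with 0.89 and an adjusted p of 0.0615 (edgeR). Against glands the log2 fold changes were 2.43 ± 0.38 for P/Rbf, 2.26 ± 0.38 for B1/P/Rbf and 1.20 ± 0.36 for B1/P, and the last call was lost when any 1 of the 3 glands was left out (adjusted p from 0.0529 to 0.0588, edgeR).

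Rbl2 (ENSMUSG00000031666.15, chr8:91070057-91123844, plus strand) encodes p130, the pocket protein most abundant in resting cells and the usual partner of MuvB in DREAM. B1/P/Rbf tumors read 30, 36.9, 39.4, 28.2 and 25.1 CPM, in the order of mice above. P/Rbf tumors read 34.1, 27.0, 25.8, 30.5 and 30.2 CPM. B1/P tumors read 77.1, 64.2, 34.1, 54.6 and 123 CPM, and the glands 106, 81.7 and 95 CPM. B1/P tumor 246361 alone of its group fell within the range of the T121 tumors, and B1/P tumor 248662 alone of all tumors exceeded the highest gland. Rbl2 fell by 1.15 on the log2 scale from B1/P to B1/P/Rbf tumors (SE 0.26, adjusted p = 0.00669, edgeR) and by 1.26 to P/Rbf tumors (SE 0.26, adjusted p = 0.00391, edgeR), and both calls held without any single library (log2 fold changes from -1.32 to -0.85 and from -1.43 to -0.96). Against glands it was lower in B1/P/Rbf tumors (-1.56 ± 0.29, adjusted p = 0.000456, edgeR) and P/Rbf tumors (-1.68 ± 0.29, adjusted p = 0.000239), while in B1/P tumors the difference of -0.42 ± 0.29 did not pass (adjusted p = 0.282). Without B1/P tumor 248662, the tumor with the most muscle marker RNA, it did pass (-0.71, adjusted p = 0.0352, edgeR). This B1/P difference from glands shrank to -0.07 without TMM (adjusted p = 0.869, edgeR). It was -0.08 both with a term for library sets (adjusted p = 0.88, edgeR) and within 1 library set (adjusted p = 0.863, edgeR). It was larger with limma (-0.59, adjusted p = 0.111) and with the study's filter (-0.7, adjusted p = 0.0611), and did not pass in either.

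Rb1 (ENSMUSG00000022105.6, chr14:73183673-73325822, minus strand) encodes pRb, the founding member of the family. The glands read 67.8, 69.0 and 75.8 CPM, above all 15 tumors. B1/P/Rbf tumors read 16.8, 19.7, 33.7, 28.6 and 42.3 CPM, B1/P tumors 21.1, 22.8, 26.0, 26.3 and 20.4 CPM, and P/Rbf tumors 17.0, 48.0, 27.4, 64.1 and 29.8 CPM. Among tumor groups the spread was narrowest in B1/P (coefficient of variation 11.7%) and widest in P/Rbf tumors (50.1%), where 287822 nearly reached the glands. Against glands, Rb1 was lower in every tumor group, with log2 fold changes of -0.93 ± 0.35 for P/Rbf (adjusted p = 0.0437, edgeR), -1.33 ± 0.35 for B1/P/Rbf (adjusted p = 0.00636) and -1.60 ± 0.35 for B1/P (adjusted p = 0.00196). The call in P/Rbf tumors was lost when any 1 of P/Rbf tumors 287842, 290860 and 290845, B1/P/Rbf tumor 209490 or the 3 glands was left out (adjusted p from 0.0512 to 0.133, edgeR), and also without TMM (0.158), with no filter (0.0671), with only the groups compared (0.0854) and within 1 library set (0.0703). Between P/Rbf and B1/P tumors the difference was 0.68 ± 0.31 (adjusted p = 0.129, edgeR), and it passed without P/Rbf tumor 287842 (0.91, adjusted p = 0.0369). The 40 kept genes nearest to Rb1 (chr14:70303469-76237545, GRCm38) had a median log2 fold change of 0.63 in the same comparison, with 30 of 40 above 0, against a median of -0.05 over all genes.

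The 3 pocket protein genes differed more in their proportions than in their summed level. Per kilobase of merged exons, the sum of the 3 was 25.2 ± 6.69 CPM per kb in B1/P/Rbf, 28.4 ± 10.5 in P/Rbf, 21 ± 6.61 in B1/P tumors and 27.7 ± 1.78 in glands (SD). Rbl1 supplied 60.1 to 69.9% of this sum in B1/P/Rbf and 60.9 to 67.0% in P/Rbf tumors, 26.4 to 44.1% in B1/P tumors and 11.8 to 13.0% in glands. These ranges of the share of Rbl1 overlapped only between the T121 groups. Rbl2 supplied 9.65 to 23.4%, 9.06 to 24.1%, 28.5 to 51.1% and 42.2 to 48.9% in the same order, and Rb1 supplied 39.2 to 44.8% in glands against 10.6 to 27.3% in the tumors. Rbl1 per kb exceeded Rbl2 per kb in 5 of 5 B1/P/Rbf, 5 of 5 P/Rbf, 1 of 5 B1/P tumors and 0 of 3 glands. A ratio within a library does not depend on the scaling: the Rbl1 to Rbl2 count ratio ran from 2.03 to 5.74 in B1/P/Rbf, from 2.01 to 5.86 in P/Rbf, from 0.411 to 1.23 in B1/P tumors and from 0.191 to 0.244 in glands. These shares and ratios are descriptions, with no test.

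**Figure D2:**
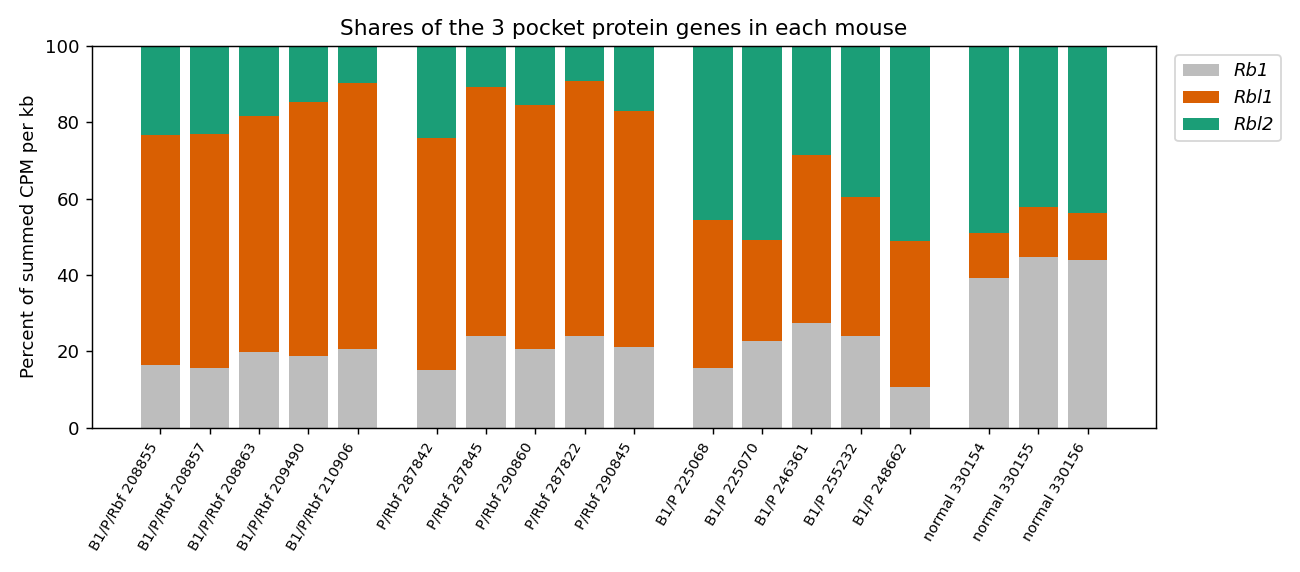
Share of Rb1, Rbl1 and Rbl2 (stacked bars) in their summed CPM per kb of merged exons (vertical axis, percent), 1 bar per mouse, grouped by genotype. Rbl1 makes up 60.1 to 69.9% of the bar in B1/P/Rbf and 60.9 to 67.0% in P/Rbf tumors, 26.4 to 44.1% in B1/P tumors and 11.8 to 13.0% in glands.

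The start-site sequences of Rbl1 and Rbl2 are shown because these paralogs moved in opposite directions. RefSeq promoters (GRCm38.p6, 250 bases before to 50 after the start site) were at hand for 7 members. They were searched on both strands for an E2F core (GGCGGGA), for an E2F consensus (TTTCCCGC, TTTGGCGC, TTTCGCGC or TTTGCCGC) and for the cell cycle gene homology region, CHR, where LIN54 binds (TTTGAA or TTCGAA). The 150 bases before each start site are printed 5′ to 3′ on the gene's strand, and capitals mark E2F matches.
Rbl1 (chr2:157204535-157204684, - strand): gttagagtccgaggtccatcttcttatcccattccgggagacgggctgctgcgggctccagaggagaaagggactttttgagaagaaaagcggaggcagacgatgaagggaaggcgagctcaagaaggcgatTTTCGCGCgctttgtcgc
Rbl2 (chr8:91069907-91070056, + strand): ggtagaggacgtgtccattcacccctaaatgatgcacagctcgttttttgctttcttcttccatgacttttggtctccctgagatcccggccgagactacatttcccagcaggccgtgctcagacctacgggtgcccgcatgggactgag
Rbl1 held an E2F consensus match with its first base at position -18 from the start site, whereas Rbl2 held no E2F match in its window and a CHR match at -201. Of 32851 promoters of this length, 2.26% held the E2F consensus, 11.3% the E2F core and 19.2% a CHR match. A match is a run of letters and shows no binding.

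Among MuvB subunits, Lin9 and Rbbp4 separated the T121 tumors from B1/P tumors completely. Lin9 (ENSMUSG00000058729.13, chr1:180641150-180690694, plus strand), a scaffold of the core on which MYB proteins dock, read 35.7, 45.8, 44.9, 41.5 and 43.3 CPM with B1/P/Rbf, against 30.3, 46.6, 34.5, 58.8 and 55.5 CPM in P/Rbf tumors. B1/P tumors read 26.0, 26.8, 16.4, 28.1 and 21.1 CPM, and glands 9.50, 12.1 and 11.0 CPM. No value of either T121 group overlapped with B1/P, and no tumor overlapped with a gland. The log2 fold change of Lin9 relative to B1/P was 0.84 ± 0.21 for B1/P/Rbf (adjusted p = 0.0117, edgeR) and 0.93 ± 0.21 for P/Rbf (adjusted p = 0.00606), and neither call was lost when any single library was left out. The P/Rbf call was lost with a term for the sets of library numbers (0.88, adjusted p = 0.0636, edgeR) and within 1 set (0.88, adjusted p = 0.101), and the B1/P/Rbf call within 1 set (0.91, adjusted p = 0.0553).

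Rbbp4 (ENSMUSG00000057236.10, chr4:129307100-129335370, minus strand) encodes a histone-binding WD40 protein that also belongs to several chromatin complexes, such as PRC2 and NuRD. It read 315, 621, 376, 432 and 428 CPM with B1/P/Rbf, against 359, 351, 420, 341 and 429 CPM in P/Rbf tumors. In B1/P tumors it read 184, 212, 115, 183 and 284 CPM, and in glands 167, 191 and 181 CPM. All 10 T121 tumors stood above every B1/P tumor and every gland, and B1/P tumors and glands overlapped. The log2 fold change relative to B1/P was 1.15 ± 0.22 for B1/P/Rbf (adjusted p = 0.00262, edgeR) and 0.96 ± 0.22 for P/Rbf (adjusted p = 0.00724), and against glands it was 1.27 ± 0.26 and 1.08 ± 0.26. For B1/P tumors against glands it was 0.12 ± 0.25 (adjusted p = 0.734, edgeR). The genes without overlap between groups were 2 of 10 members for B1/P/Rbf relative to B1/P (10.5% of all genes) and 3 of 10 for P/Rbf relative to B1/P (8.86% of all genes), Lin52 being the other gene in the latter. Rbbp4 shares 782 exonic bases with Sync and 796 with Gm26722, whose differences from B1/P did not pass in either T121 group (adjusted p of 0.663 or more, edgeR).

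Lin52 (ENSMUSG00000085793.2, chr12:84451422-84546145, plus strand) encodes the subunit whose phosphorylation by DYRK1A favours assembly of DREAM. It read 8.34, 13.1, 9.93, 13.0 and 11.2 CPM for B1/P/Rbf, 9.98, 14.8, 13.1, 13.7 and 12.7 CPM for P/Rbf and 9.28, 5.54, 5.81, 6.45 and 6.18 CPM in B1/P tumors. The glands read 20, 18.5 and 23.5 CPM. P/Rbf tumors lay above all B1/P tumors, B1/P/Rbf tumors overlapped with B1/P tumor 225068 alone, and all tumors lay below the glands, so that Lin52 and Rb1 were the members lower than glands in all 3 tumor groups. The log2 fold change of Lin52 relative to B1/P was 0.74 ± 0.22 for B1/P/Rbf (adjusted p = 0.028, edgeR) and 0.95 ± 0.22 for P/Rbf (adjusted p = 0.00733). The first call was lost when any 1 of B1/P/Rbf tumors 208857 and 209490 or B1/P tumors 246361 and 248662 was left out (adjusted p from 0.0544 to 0.0691, edgeR), and without B1/P tumor 225070 the adjusted p rounded to 0.05. It was also lost with no filter (adjusted p = 0.0653), and with only the groups compared both calls were lost (adjusted p = 0.105 and 0.052, edgeR). Against glands the log2 fold changes of Lin52 were -0.89 ± 0.25 for B1/P/Rbf, -1.64 ± 0.25 for B1/P and -0.68 ± 0.25 for P/Rbf (adjusted p = 0.00907, 9.14e-05 and 0.0373, edgeR). The first of these was lost without gland 330156 (-0.77, adjusted p = 0.0647), and the last when any 1 of P/Rbf tumors 287842, 290860 and 290845 or the glands was left out (adjusted p from 0.0544 to 0.175, edgeR). Without TMM the first and the last were lost (adjusted p = 0.116 and 0.22), and the last also with limma (0.159) and with no filter (0.0996).

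Lin54 (ENSMUSG00000035310.15, chr5:100441918-100500639, minus strand), the DNA-binding subunit, ranged from 29.2 to 37.5 CPM in B1/P/Rbf, 28.2 to 65.7 CPM in P/Rbf and 24.6 to 31.3 CPM in B1/P tumors, with 10.7 to 11.3 CPM in glands. P/Rbf tumors 287845 and 287822 stood highest (65.7 and 63.1 CPM). The log2 fold change of 0.70 ± 0.22 between P/Rbf and B1/P tumors passed (adjusted p = 0.0367, edgeR), but was lost when any 1 of P/Rbf tumors 287845, 287822 and 290845 or B1/P tumors 225068, 225070 and 246361 was left out (adjusted p from 0.0526 to 0.096). Of 7 other settings only DESeq2 kept this Lin54 call (adjusted p = 0.0158), and the adjusted p was 0.102 with limma, 0.062 without TMM, 0.0592 with no filter, 0.116 with only the groups compared, 0.256 with the term for library sets and 0.352 within 1 set. All tumors exceeded all glands, by log2 fold changes of 2.04 ± 0.28 for P/Rbf, 1.61 ± 0.27 for B1/P/Rbf and 1.34 ± 0.27 for B1/P. Lin37 (ENSMUSG00000036845.12, chr7:30555441-30559838, minus strand), a subunit needed for repression by DREAM, ranged from 6.16 to 17.8 CPM over all 18 libraries and was not called in any of the 6 comparisons (adjusted p from 0.436 to 0.987, edgeR), and the sign of its differences from glands changed with the scaling. On the per-length scale Rbbp4 was the highest MuvB gene in all 4 groups (20.5 to 49.7 CPM per kb as group means), followed by Lin37 (6.94 to 8.80 CPM per kb).

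Start sites of Lin52 and Lin37 are shown for the E2F matches that lie close before them, printed as above.
Lin52 (chr12:84451358-84451507, + strand): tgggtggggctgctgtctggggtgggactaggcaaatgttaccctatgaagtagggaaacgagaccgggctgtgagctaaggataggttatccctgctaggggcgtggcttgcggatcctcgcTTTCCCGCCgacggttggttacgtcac
Lin37 (chr7:30559647-30559796, - strand): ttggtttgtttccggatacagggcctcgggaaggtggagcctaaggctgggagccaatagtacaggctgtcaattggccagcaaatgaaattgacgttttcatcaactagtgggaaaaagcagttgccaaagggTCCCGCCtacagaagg
The capitals in Lin52 span a consensus match at -27 that overlaps with a core match on the other strand at -25, and a further core match lay at -223. Lin37 held a core match on the other strand at -16 and a CHR match at -197. In Lin54, which has 2 RefSeq start sites, the downstream one held a core match at -89 and CHR matches at -162 and 30, and the upstream one held a CHR match at 41. Rbbp4 held none of these motifs. Over the 7 members with a promoter, 4 held the core (Mybl2, Lin54, Lin37 and Lin52), 2 the consensus (Rbl1 and Lin52) and 3 a CHR match (Lin54, Lin37 and Rbl2).

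Mybl2 (ENSMUSG00000017861.11, chr2:163054687-163084688, plus strand) encodes B-MYB, which joins MuvB in late S phase, and Mybl1 (ENSMUSG00000025912.16, chr1:9667415-9700209, minus strand) encodes its paralog A-MYB. Mybl2 read 39.3, 70.8, 47.8, 90.2 and 33.6 CPM for B1/P/Rbf, 75.3, 26.9, 44.9, 50.9 and 52.6 CPM for B1/P and 45.5, 69.2, 83.6, 144 and 90.9 CPM in P/Rbf tumors, and 2.89, 4.74 and 4.50 CPM in glands. It had the largest rise over glands among the 10 genes in each tumor group, with log2 fold changes of 3.80 ± 0.46 for B1/P/Rbf, 3.63 ± 0.46 for B1/P and 4.42 ± 0.48 for P/Rbf (adjusted p = 9.25e-06, 1.78e-05 and 2.75e-06, edgeR). Mybl1 read 9.30, 17.8, 18.2, 11.0 and 15.0 CPM for B1/P/Rbf, 10.8, 11.1, 7.64, 39.7 and 15.4 CPM for B1/P and 7.91, 22.5, 20.3, 33.6 and 25.9 CPM in P/Rbf tumors, and 1.84, 4.58 and 4.74 CPM in glands. The tumors overlapped among themselves at both genes, with no call between tumor groups, and no tumor overlapped with a gland. Mybl1 exceeded glands by log2 fold changes of 1.94 ± 0.56, 2.19 ± 0.57 and 2.56 ± 0.58 in the same order (adjusted p = 0.0123, 0.00714 and 0.00231, edgeR), the first of which was lost without gland 330154 (1.64, adjusted p = 0.0613). With the term for library sets these fold changes of Mybl1 were 3.42, 2.89 and 2.56 (adjusted p = 0.00379, 0.0016 and 0.00072, edgeR). In B1/P, tumor 255232 read 39.7 CPM of Mybl1 against 7.64 to 15.4 CPM in the others. The log2 fold change of Mybl1 from glands to B1/P tumors ran from 1.59 to 2.41 when single libraries were left out, and stayed called. Per kb, Mybl2 supplied 59.9 to 90.5% of the sum of both MYB genes in the tumors and 52.6 to 64.7% in glands. The Mybl2 start site, shown for its E2F core match at -13, read as follows.
Mybl2 (chr2:163054485-163054634, + strand): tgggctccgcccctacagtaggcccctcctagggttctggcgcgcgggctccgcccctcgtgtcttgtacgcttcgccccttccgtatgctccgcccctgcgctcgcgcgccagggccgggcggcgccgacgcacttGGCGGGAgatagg

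**Figure D3:**
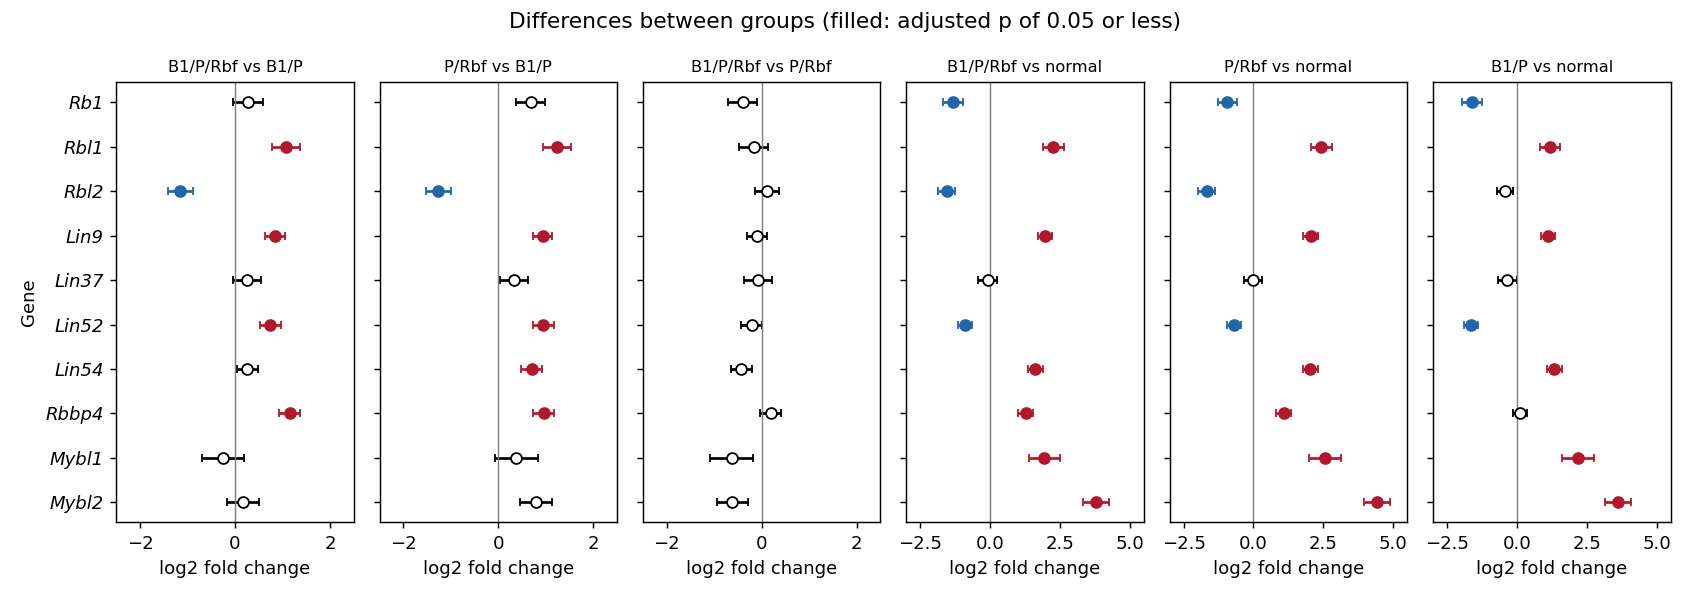
Log2 fold change (horizontal axes) with SE of each gene in the 6 comparisons, from the edgeR fit of all 18 libraries. Filled points passed an adjusted p of 0.05 or less, red for higher and blue for lower in the group named first; 0 of 10 passed between the T121 groups.

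Against glands, 6 of 10 members were higher and 3 of 10 lower in B1/P/Rbf tumors, beside 17.1% and 20% of all genes. P/Rbf tumors likewise had 6 higher and 3 lower, beside 17.4% and 20.3%, and B1/P tumors had 5 higher and 2 lower, beside 16.8% and 16.9%. The members higher in all 3 were Rbl1, Lin9, Lin54, Mybl1 and Mybl2, with Rbbp4 added in both T121 groups. Rb1 and Lin52 were lower in all 3, and Rbl2 in both T121 groups. The 3 comparisons share the glands, and the groups did not overlap at 9, 9 and 7 of 10 members in B1/P/Rbf, P/Rbf and B1/P tumors, where 50.5%, 46.5% and 41.4% of all genes did not. The muscle, fat and lymphocyte RNA of the glands moves with every one of these differences, and its part in them was not tested. Scaling bears on them too: with library sizes alone in place of TMM, the median log2 fold change of all genes rose from 0.05 to 0.42 in B1/P/Rbf, from 0.12 to 0.47 in B1/P and from 0.05 to 0.33 in P/Rbf tumors, and the calls over all genes went from 3273 higher and 3835 lower to 5122 and 2887, from 3232 and 3249 to 5126 and 2440, and from 3333 and 3897 to 4720 and 3159. On that scale Lin52 no longer passed in B1/P/Rbf (-0.51, adjusted p = 0.116, edgeR) or P/Rbf tumors (-0.40, adjusted p = 0.22), and Rb1 no longer in P/Rbf tumors (-0.64, adjusted p = 0.158).

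With a term for the 2 sets of library numbers, B1/P/Rbf tumors kept the direction of all 5 differences from B1/P and lost the call at Lin52 alone (0.69, adjusted p = 0.0863, edgeR). P/Rbf tumors then differed from B1/P at Rbl2 (-1.59, adjusted p = 0.00363, edgeR) and Lin52 (1.03, adjusted p = 0.0412), while Rbl1 (0.96, adjusted p = 0.144), Lin9 (given above), Rbbp4 (0.70, adjusted p = 0.126) and Lin54 (0.55, adjusted p = 0.256) no longer passed. Within the first 8 libraries, where 5 B1/P/Rbf and 3 B1/P tumors lie, the log2 fold changes were 1.31 for Rbl1 (adjusted p = 0.0535, edgeR), -0.85 for Rbl2 (adjusted p = 0.116), 0.91 for Lin9 (adjusted p = 0.0553), 0.72 for Lin52 (adjusted p = 0.229) and 1.38 for Rbbp4 (adjusted p = 0.0332). Within libraries 9 to 18, where only 2 B1/P tumors lie, they were 0.96, -1.59, 0.88, 1.03 and 0.70 in P/Rbf tumors (adjusted p = 0.148, 0.0069, 0.101, 0.0381 and 0.078, edgeR). With the same term, the lower calls of Rb1, Rbl2 and Lin52 in B1/P/Rbf tumors against glands were lost (-1.33, -0.96 and -1.02, adjusted p = 0.122, 0.139 and 0.0873, edgeR).

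Genes that pocket proteins and MuvB are known to regulate differed between the tumor groups as well. Of 25 replication genes listed as G1/S targets, 19 were called higher for B1/P/Rbf against B1/P and 0 lower, with a median log2 fold change of 1.15 beside -0.06 over all genes. Gins2, a subunit of the replicative helicase, rose by 1.77 ± 0.29 (adjusted p = 0.00102, edgeR), and Orc1, of the origin recognition complex, by 1.67 ± 0.34 (adjusted p = 0.00362). For P/Rbf relative to B1/P 19 of 25 were higher and 0 lower (median 0.95 beside -0.05), among them Rrm2, a subunit of ribonucleotide reductase (1.87 ± 0.39, adjusted p = 0.00406, edgeR), and Orc1 (1.56 ± 0.34, adjusted p = 0.00525). Of 25 mitotic genes listed as G2/M targets, 5 were higher in B1/P/Rbf (median 0.60) and 15 in P/Rbf tumors (median 1.04) than in B1/P, and 0 were lower in either. The kinase gene Nek2 and the cyclin gene Ccnb2 were higher in both, with 1.27 ± 0.36 and 0.98 ± 0.24 in B1/P/Rbf (adjusted p = 0.0217 and 0.0118, edgeR) and 1.44 ± 0.36 and 1.45 ± 0.25 in P/Rbf tumors (adjusted p = 0.0109 and 0.00135). The count of 5 fell to 1, 3, 3, 3 and 2 without 208857, 209490, 225068, 225070 and 246361, and rose to 9 and 8 without 287842 and 287822. With the term for library sets, 20 G1/S and 9 G2/M targets were called for B1/P/Rbf against B1/P and 6 and 3 for P/Rbf, so the order of the G2/M counts between the T121 groups turned round, as did that of the higher calls over all genes (1060 and 618, given above). The difference between these counts was not tested. Between the T121 groups 0 genes of either list were called (edgeR; 3 G1/S and 5 G2/M targets had an unadjusted p under 0.05, DESeq2 called 1 and 0, and limma 0), and all 25 of each list were higher than glands in all 3 tumor groups. Mki67, the proliferation marker, differed from B1/P by 0.76 ± 0.38 in B1/P/Rbf (adjusted p = 0.181, edgeR) and 0.99 ± 0.38 in P/Rbf tumors (adjusted p = 0.0763), and whether proliferation accounts for the differences at the members was not tested.

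Among the kinases, cyclins and inhibitors that act on pocket proteins, 15 in all, 4 rose and 3 fell for B1/P/Rbf against B1/P, and for P/Rbf 6 rose and 3 fell (5 called in all with the term for library sets). Of all genes, 7.36% were called higher and 9.29% lower for B1/P/Rbf, and 8.43% and 10.8% for P/Rbf. The 3 lower genes of this list were Ccnd1, Ccnd2 and Cdk6, which encode cyclins D1 and D2 and their kinase. Cyclin D1 RNA ranged from 21.8 to 93.6 CPM in B1/P/Rbf, 39.3 to 314 CPM in P/Rbf and 173 to 1212 CPM in B1/P tumors, and its log2 fold changes against B1/P were -4.01 ± 0.71 for B1/P/Rbf (adjusted p = 0.00172, edgeR) and -2.17 ± 0.66 for P/Rbf (adjusted p = 0.0299). Cdk6 ranged from 6.44 to 23.6, from 4.36 to 50.4 and from 70.9 to 374 CPM in the same order (-3.75 ± 0.63, adjusted p = 0.00128, edgeR, in B1/P/Rbf, and -3.29 ± 0.62, adjusted p = 0.00243, in P/Rbf tumors). Ccnd2 ranged from 14.4 to 31.1, from 11.2 to 58.7 and from 107 to 641 CPM, and differed by -3.62 ± 0.52 in B1/P/Rbf (adjusted p = 0.00048, edgeR) and -3.66 ± 0.52 in P/Rbf tumors (adjusted p = 0.000474). B1/P tumors did not overlap with either T121 group at Cdk6 and Ccnd2. In each of the 2 comparisons 6 of the 15 genes did not overlap, beside 10.5% of all genes for B1/P/Rbf and 8.86% for P/Rbf. Of 8 partners of DREAM and MYB-MuvB, 0 were called in B1/P/Rbf and 1 in P/Rbf tumors against B1/P: the repressor E2F gene E2f5 (0.70 ± 0.22, adjusted p = 0.0346, edgeR). Beside the 0, 1 had an unadjusted p under 0.05, and 1 was called by DESeq2, by limma, with the term for library sets, within 1 set and without B1/P tumor 255232. Of 6 other E2F genes, 0 and 3 were called higher, led in P/Rbf tumors by E2f7, an atypical repressor (1.63 ± 0.32, adjusted p = 0.00309, edgeR), and E2f2, an activator (1.26 ± 0.37, adjusted p = 0.026), but this order turned round with the term for library sets (1 called for B1/P/Rbf and 0 for P/Rbf) and within the set that holds each T121 group (2 and 0). Beside the 0 in B1/P/Rbf, 3 had an unadjusted p under 0.05 (edgeR), DESeq2 called 2, limma 0 and the fit with only the groups compared 1, as many as that fit called for P/Rbf, and leaving out 1 library gave 2 without 287842, 1 without 246361, 248662 or 287822 and otherwise 0. The 3 in P/Rbf tumors went to 1 when any 1 of 225068, 225070, 246361, 287845 and 287822 was left out, and E2f5 lost its call without 225068 or 287822, without TMM, with no filter, with only the groups compared, with the term for library sets and within 1 set.

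**Figure D4:**
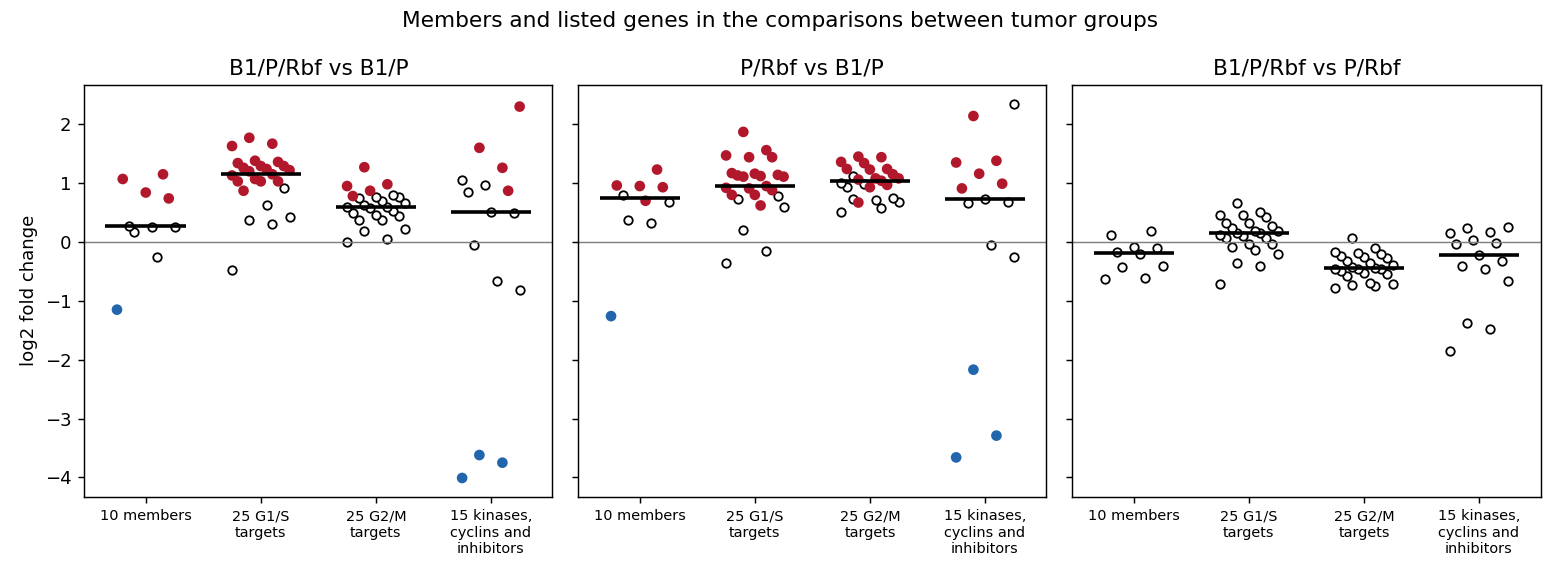
Log2 fold changes (vertical axis) of the 10 members and of the genes of 3 lists in the comparisons between tumor groups, 1 point per gene, with the median of each list as a bar. Filled points passed an adjusted p of 0.05 or less (red higher, blue lower in the group named first): 19, 19 and 0 of 25 G1/S targets passed from left to right, and 5, 15 and 0 of 25 G2/M targets.

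Within groups, single tumors stood at the edge of many members at once. P/Rbf tumor 287822 was the highest of its group at 6 of 10 members (Rb1, Rbl1, Lin9, Lin37, Mybl1 and Mybl2) and had the most Mki67 RNA (1620 CPM), and P/Rbf tumor 287842 was the lowest at 7 of 10 (all but Rbl2, Lin37 and Rbbp4) and had the least (386 CPM). Tumor 287822 also had the highest mean log2 CPM of its group at the endothelial (5.57, others 3.49 to 4.69), macrophage (6.25, others 4.77 to 5.85), lymphocyte (1.37, others -1.11 to 0.33) and skeletal muscle markers (-1.22, others -2.79 to -1.38). At the fibroblast markers it had the lowest (5.84, others 5.95 to 7.52). Tumor 287842 had the lowest at the endothelial (3.49), macrophage (4.77), basal (1.80, others 2.81 to 5.76) and skeletal muscle markers (-2.79) and the highest at the luminal markers (9.77, others 8.96 to 9.50), and the part of these cell types in the members' values was not tested. B1/P tumor 255232 was the highest of its group at 5 of 10 (Rb1, Lin9, Lin37, Lin54 and Mybl1). B1/P/Rbf tumor 208855 was the lowest of its group at 7 of 10 (all but Rbl2, Lin37 and Mybl2), with 529 CPM of Mki67 where the others held 510 to 1134 CPM. It also had the highest mean log2 CPM of its group at the fibroblast (8.08, others 5.70 to 6.68), endothelial (5.73, others 4.02 to 4.71), adipocyte (4.16, others -0.71 to 2.68) and macrophage markers (6.66, others 4.75 to 6.56), whose part in its low values was not tested. B1/P tumor 246361 was the lowest of its group at 5 of 10 (Rbl2, Lin9, Lin54, Rbbp4 and Mybl1). Its luminal markers were the lowest too (4.49, others 7.05 to 8.17). B1/P tumor 225070 was the lowest at 4 (Rbl1, Lin37, Lin52 and Mybl2) and at the basal markers (3.43, others 6.04 to 7.18). Its fibroblast (8.88, others 7.25 to 8.09) and macrophage markers (7.9, others 5.58 to 7.04) were the highest. Their part was not tested.

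Profiles over the 18 libraries were compared by the mean absolute difference of log2 CPM after centring each gene. The genes were not scaled to a common spread, so this measure also depends on how far each gene moved. The mean absolute deviation was 1.147 for Mybl2, 0.682 for Rbl2 and 0.494 for Lin54. By this measure the most alike members were Lin9 and Lin54 (0.26), followed by Rbl1 and Lin54 (0.35), and the least alike were Rbl2 and Mybl2 (1.64). Over all kept genes, Rbl1 was closest to Ncapd3 (0.262), Cep72 (0.272) and Tmpo (0.275), and Rbl2 to Rpl37a (0.279), Lrrc28 (0.301) and Gm4149 (0.307). The closest genes were Usp1, Cenpl and Ctnnb1 for Lin9 (0.186 to 0.226) and Cenpl, Plp2 and Cenpq for Lin54 (0.160 to 0.235). Suz12, Hdac1 and Fbxl8 were closest to Rbbp4 (0.163 to 0.212), and Isca2, Hemk1 and Coq6 to Lin52 (0.203 to 0.229). Hdac1 lies among the 40 genes nearest to Rbbp4, and Isca2 and Coq6 among those nearest to Lin52.

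The chromosomal surroundings of the members were described by the median log2 fold change of the nearest genes. The 40 genes nearest to Rbl1 had medians of 0.14 and -0.24 in B1/P/Rbf and P/Rbf tumors against B1/P, those nearest to Rbl2 -0.10 and -0.37, to Lin9 -0.34 and -0.39, and to Rbbp4 0.27 and 0.17. The genes nearest to Lin52 (chr12:83763634-85339362) had medians of 0.47 and 0.37, with 33 and 32 of 40 above 0. In single B1/P tumors the neighbours of Lin52 deviated from their tumor mean by 0.44 on the log2 scale in 225068, where Lin52 deviated by -0.06, and by -0.58 to -0.41 in the other 4, where Lin52 deviated by -0.80 to -0.59. For Mybl1 (window chr1:4807788-14755992), B1/P tumor 255232 had a deviation of 1.33 at the gene and a median of 1.58 at its 40 neighbours, 35 of which lay above their tumor mean. The medians of the other 14 tumors at that window ran from -0.31 to 0.20. DNA copy number was not analysed here.

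**Figure D5:**
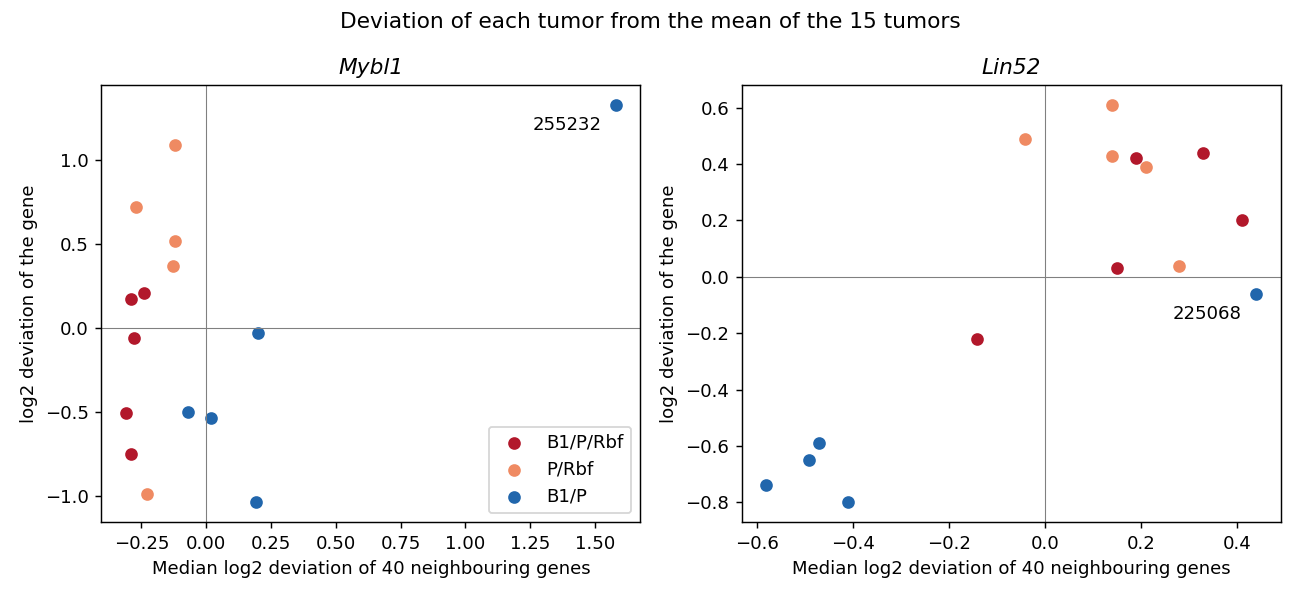
Log2 deviation of Mybl1 and of Lin52 from the mean of the 15 tumors (vertical axes) against the median deviation of the 40 nearest kept genes (horizontal axes), 1 point per tumor, coloured by group. B1/P tumor 255232 lies at 1.58 and 1.33 in the Mybl1 panel, and B1/P tumor 225068 lies at 0.44 and -0.06 in the Lin52 panel, apart from the other 4 B1/P tumors.

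Some counts could include reads of overlapping genes, since the sources used here do not state whether counting used the strand. Rb1 shares 488 exonic bases with Rcbtb2 and 408 with Lpar6, and Rbl2 shares 693 with Aktip and 892 with Gm45464. Rcbtb2 differed from B1/P by 0.83 ± 0.26 for B1/P/Rbf and 0.99 ± 0.26 for P/Rbf (adjusted p = 0.0335 and 0.0132, edgeR). Against glands, where Rb1 was called, Rcbtb2 and Lpar6 were lower in B1/P tumors as well (-1.39 ± 0.29 and -1.75 ± 0.50, adjusted p = 0.00141 and 0.012, edgeR). In B1/P/Rbf and P/Rbf tumors their differences from glands did not pass (Rcbtb2 -0.55 and -0.39, adjusted p = 0.145 and 0.302, and Lpar6 -1.25 and -0.97, adjusted p = 0.0574 and 0.136, edgeR). Aktip differed from B1/P by 0.60 ± 0.35 and 0.69 ± 0.35 in B1/P/Rbf and P/Rbf tumors (adjusted p = 0.257 and 0.171, edgeR), the opposite sign to Rbl2.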

How the data were processed

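RNA-seq of 18 bulk libraries, 1 per mouse, was analysed: 3 normal glands and 15 tumors, 5 for each of P/Rbf, B1/P/Rbf, and B1/P. The deposited values are expected counts per gene, which the authors made by trimming stranded, paired-end mRNA reads with cutadapt and quantifying them with RSEM. The submitters' processing notes name cutadapt 1.18, RSEM 1.3.0, FastQC 0.11.5, Picard 1.119 and DESeq2 1.28.1. The study's methods name a human reference, whereas all 55450 identifiers match a mouse GENCODE annotation of GRCm38, which was used for positions and merged exon lengths. RSEM divides reads shared between genes, and 5.61% of values were not whole, so counts were rounded. Total counts ranged from 27661173 to 37794889, which limits the precision of the lowest genes. Scaling to the library total makes a rise in a few abundant genes lower all others, which TMM scaling is meant to reduce.

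Genes were filtered with filterByExpr (minimum count 10), which kept 19186. The fit was edgeR 4.0.16 (R 4.3.3), a quasi-likelihood test of all 18 libraries with a term for group, TMM scaling and Benjamini-Hochberg adjustment over all kept genes. Differences with an adjusted p of 0.05 or less were called. Fold changes are log2 values from that fit, and their standard errors were derived from the fitted value and its F statistic. CPM values are TMM-scaled. Levels were compared between genes per kilobase of merged exons, apart from the Rbl1 to Rbl2 count ratio, which was not scaled to length. The p-values weigh differences between groups against the spread between mice, which the main fit estimated over all groups together. The edgeR, DESeq2 and limma fits were run on simulated counts for B1/P/Rbf against B1/P and for B1/P against glands. The other steps were not tested in this way.

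The members and the gene lists were chosen with earlier results of these data known. Named genes were the 10 members, Brca1, Trp53 and Mki67, in each list and tumor comparison the 2 called genes with the largest absolute log2 fold change, and for each member called between tumor groups the 3 genes of nearest profile. Genes overlapping members were added after their values were seen. Alternatives were DESeq2 1.42.0, limma 3.58.1 with voom and quantile normalization as in the study, library sizes without TMM, no filter, the study's filter (a log2 CPM of 6 or more in 6 or more samples), only the groups compared, a term for library numbers up to 8 against 9 and above, fits within 1 of these sets (chosen after seeing the data) and leaving out each library. No paired analysis was possible because no mouse number is shared between groups. Promoter sequences are from RefSeq (GRCm38.p6), those of Rb1, Lin9 and Mybl1 were not used here, and figures were drawn with matplotlib 3.10.9.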

Additional observations from a re-analysis of the deposited data

Results flagged for a closer look

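Samples that stood far from the rest of their group were sought at each of the 10 members in the 3 tumor groups of 5 mice, 30 groups in all, by the gap to the nearest other sample as a share of the whole range. Chance flags about 1 in 20 such groups, and 2 of the 30 were flagged. Mybl1 read 39.7 CPM in B1/P tumor 255232, where the next highest B1/P tumor read 15.4 CPM. In this tumor the 40 genes nearest to Mybl1 on chromosome 1 had a median deviation of 1.58 on the log2 scale from the tumor mean, 24 of them deviating by more than 1. Lin52 read 9.28 CPM in B1/P tumor 225068, where the next highest read 6.45 CPM, and the median deviation of its 40 nearest genes on chromosome 12 was 0.44. DNA was not analysed here.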

How the results depend on the processing

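Of 10 members, 5, 0 and 6 were called for B1/P/Rbf against B1/P, B1/P/Rbf against P/Rbf and P/Rbf against B1/P, and against glands 9 for B1/P/Rbf, 7 for B1/P and 9 for P/Rbf. With the study's filter only 4 members were tested, and 3, 3, 4, 1 and 4 were called in these comparisons, leaving out the second. With a term for library sets 2 were called for P/Rbf against B1/P, and within 1 library set 1 for B1/P/Rbf and 2 for P/Rbf against B1/P, with fewer samples. In no alternative did a called difference change sign. Leaving out 1 library gave 4 to 5, 0 to 0, 5 to 7, 8 to 9, 6 to 8 and 7 to 9 calls in the order above. The other settings kept each count within 1.5 times: 5, 0, 6, 9, 7 and 9 with DESeq2, 5, 0, 5, 9, 7 and 8 with limma, 5, 0, 5, 8, 7 and 7 without TMM, 4, 0, 5, 9, 7 and 7 with no filter, and 4, 0, 4, 9, 7 and 8 with only the groups compared (Lin52 lost in both T121 comparisons with B1/P at adjusted p = 0.105 and 0.052, Lin54 in P/Rbf against B1/P at 0.116 and Rb1 in P/Rbf against glands at 0.0854, edgeR). Over the 10 members and the settings that left out no library, 21 values changed sign with no call in either fit, and 32 lost their call. The other 371 stayed on their side of the threshold, and the cause was not tested.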
